A study of Mus musculus with 4 samples.

Results

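GABA neurons with Dlx6os1 were nuclei of the mouse thalamus that carried transcripts of GABA-synthesizing enzymes together with Dlx6os1, a long noncoding RNA. A nucleus was kept when less than 5% of its unique molecular identifiers (UMIs, each a counted RNA molecule) came from mitochondrial genes and when it held at least 4000 UMIs. It had to show at least 4 of the 5 neuronal genes Rbfox3, Snap25, Syt1, Myt1l and Celf4, at least 3 UMIs of Gad1 plus Gad2 and more of these than of Slc17a6 plus Slc17a7. It also had to carry at least 3 UMIs of Dlx6os1, fewer than 10 of Nwd2 and fewer than 5 of Npsr1. The members were thus chosen by measured UMI counts of these genes, which carry no test here. This left 362 nuclei of 3997 GABA neurons, 17657 neurons and 32291 nuclei with a low mitochondrial share, 23395 of which held 4000 UMIs or more. The remaining 3635 GABA neurons, with fewer than 3 Dlx6os1 UMIs, were the comparison class.

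The tissue came from adult wild-type C57BL6 mice of about 7 to 8 weeks at the start. Saline was injected in the NS group. In the COL group the injection held type IV collagenase (Coll IV), which digests the collagen of vessels so that they bleed. Both were given on the right side, into the VPM and VPL, the thalamic nuclei that relay touch and pain. Injured thalamic tissue was taken 7 days later, and each single-nucleus library pooled the tissue of 3 mice of 1 group. The library was therefore the unit of replication (n = 2 per group), and differences between single mice were not visible. For COL against NS, p-values measured the spread between pools. In tests with the library as a block, they measured how the difference between classes varied from library to library.

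GABA neurons release the main inhibitory transmitter of the brain, which Gad1 and Gad2 make from glutamate. In the embryo the homeobox genes of the Dlx family direct the making of GABA neurons in the ventral forebrain and the prethalamus, from which the thalamic reticular nucleus and zona incerta arise. Other GABA neurons found in and around the thalamus come from the midbrain and from caudal diencephalon, and use transcription factors such as Gata3, Tal1, Otx2 and Sox14 instead. Dlx6os1 is transcribed from the strand opposite Dlx6, through an enhancer that Dlx5 and Dlx6 share.

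In the mm10 build (GENCODE M21), Dlx6os1 (ENSMUSG00000090063) lies on the minus strand at chr6:6820189-6871592, and its span covers Dlx6 (plus strand, chr6:6863334-6868568). Dlx5 lies beside it at chr6:6877805-6882085. The 250 bases ahead of each of its RefSeq start sites are shown because the gene defines these neurons and because both windows hold TAATTA, the core sequence that many homeodomain proteins recognize. The motif, in capitals, reads the same on both strands. Sequences are written 5′ to 3′ on the minus strand of GRCm38, at chr6:6869534-6869783 for the first start site and chr6:6861684-6861933 for the second.
Dlx6os1 start site 1: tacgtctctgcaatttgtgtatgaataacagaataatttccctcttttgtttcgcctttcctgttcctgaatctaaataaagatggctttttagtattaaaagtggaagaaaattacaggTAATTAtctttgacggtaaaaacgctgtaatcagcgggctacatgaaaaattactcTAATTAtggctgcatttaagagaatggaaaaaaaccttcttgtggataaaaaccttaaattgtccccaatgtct
Dlx6os1 start site 2: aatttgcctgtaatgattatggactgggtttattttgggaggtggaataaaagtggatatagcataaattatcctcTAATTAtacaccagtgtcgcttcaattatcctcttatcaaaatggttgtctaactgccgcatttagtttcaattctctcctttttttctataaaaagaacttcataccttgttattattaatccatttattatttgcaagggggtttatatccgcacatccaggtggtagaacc
The motif occurred 2 times ahead of the first start site and 1 time ahead of the second. Of 32851 such windows over all genes, 4.84% held it. Among 10 genes searched (Dlx6os1, Dlx6os2, Dlx1, Dlx2, Lhx6, Sox6, Etv1, Prox1, Meis2 and Tshz1), 9 matched the table with 19 windows, and 2 of these windows, those of Dlx6os1, held the motif. A match describes letters only, and binding was not measured.

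The members were spread unevenly over the libraries, with 192 nuclei in NS replicate 1, 20 in NS replicate 2, 81 in COL replicate 1 and 69 in COL replicate 2. Values given as 4 numbers follow this order throughout. NS replicate 2 thus stood apart with few members, and its member nuclei summed to 236363 UMIs against 2442787, 1467725 and 1341967 in NS replicate 1, COL replicate 1 and COL replicate 2. The median UMIs per member nucleus were 11936, 8936, 17430 and 17633, so both COL libraries were deeper per nucleus than both NS libraries. The comparison class had medians of 9934, 9410, 14269 and 14917 UMIs. Pairs of libraries shared between 8 and 31 barcodes, of the 5943 to 10438 barcodes each library held.

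Of the marker genes that chose the members, Dlx6os1 had 892, 73, 411 and 343 UMIs in them, with a median per nucleus of 4, 3, 4 and 4 and a highest value of 17, 8, 21 and 14. Just inside the limit, 72, 12, 29 and 28 members carried exactly 3 Dlx6os1 UMIs. Just outside it, 150, 28, 73 and 54 GABA neurons carried 2, so the limit cut through a continuous range and not between separate groups. Of all GABA neurons, 890, 721, 396 and 668 had no Dlx6os1 UMI. The pan-neuronal genes, which are those of the rule, summed to 5395, 4540, 6665 and 5278 CPM (UMIs per 1000000 UMIs of the summed nuclei) in the members.

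After each nucleus was thinned to 4000 UMIs, Dlx6os1 was seen in 74.6% of the members, in 10.9% of the comparison class, in 0.967% of glutamatergic neurons and in 0.770% of oligodendrocytes. The glutamatergic neurons passed the same neuronal gates with more Slc17a6 plus Slc17a7 than Gad UMIs. By the rule, the comparison class includes nuclei with 1 or 2 Dlx6os1 UMIs. The members also carried RNA of glia. The median member showed 4, 4, 4 and 6 of 8 oligodendrocyte markers, the same as the median of the comparison class, and doublets were not removed.

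Members made up 12.4% (95% Clopper-Pearson interval 10.8 to 14.1), 2.37% (1.45 to 3.64), 12% (9.66 to 14.7) and 7.43% (5.82 to 9.31) of the GABA neurons in the 4 libraries. The intervals cover counting error only. The lowest and the highest share both came from NS libraries, and both COL libraries lay between them. The mean was 7.38% ± 7.08 (SD, n = 2) in NS and 9.72% ± 3.25 (SD, n = 2) in COL, a difference of 2.34 percentage points (two-sided exact permutation test, p = 1.00, with 0.333 the smallest p this design allows). Without NS replicate 2 the difference was -2.66 points, and without NS replicate 1 it was 7.35 points. Of all nuclei with 4000 UMIs or more, members made up 2.86%, 0.340%, 1.56% and 1.23%, with means of 1.60% ± 1.78 in NS and 1.40% ± 0.236 in COL (exact permutation test, p = 1.00, n = 2 per group). Without NS replicate 1 the difference of this share turned from -0.203 to 1.06 points. No difference between the groups was detectable beyond the spread between the NS libraries.

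**Figure D1:**
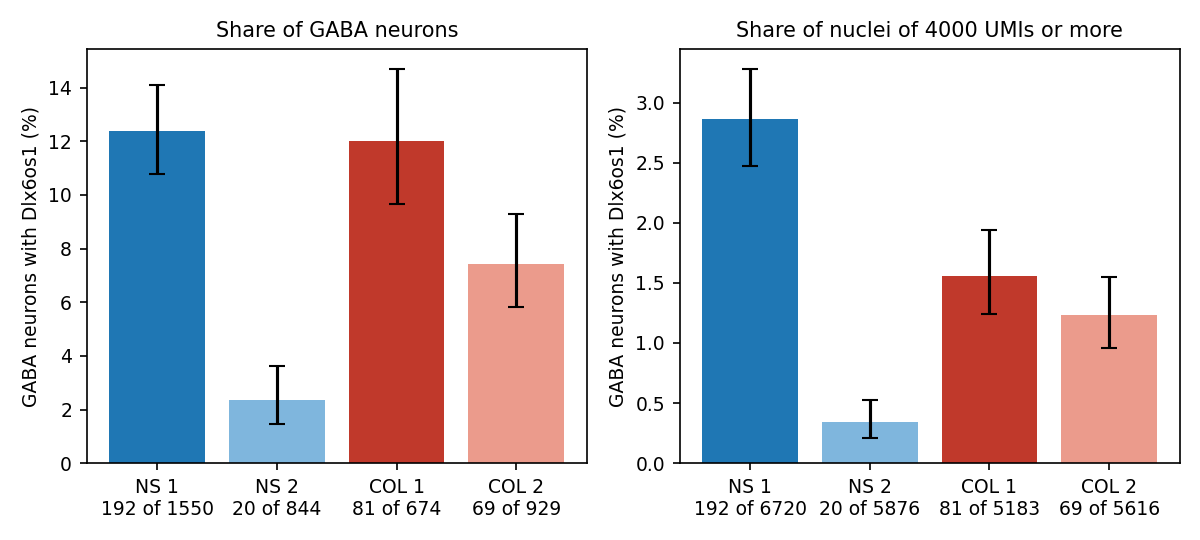
Share of GABA neurons with Dlx6os1 (in %) among GABA neurons (left) and among nuclei of 4000 UMIs or more (right), 1 bar per library, with 95% Clopper-Pearson intervals for counting error and the numbers of nuclei under each bar. NS replicates 1 and 2 (12.4% and 2.37% of GABA neurons) lie further apart than the COL replicates (12% and 7.43%).

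The members were of several kinds. Leiden clustering of the 362 nuclei, without the genes of the rule, gave 12 clusters of 6 to 74 nuclei, which are described here and not tested. Cluster 2 (47 nuclei) led with Rarb, Rgs9, Phactr1, Gng7 and Drd3, genes of medium spiny neurons of the striatum, and showed 10 of 12 striatal projection markers in at least 25% of its nuclei, so it was called striatal-projection-like. No other cluster showed more than 6 of these 12. Its level of Rarb, a retinoic acid receptor, was 1087 CPM against 53.8 CPM in the other members. Cluster 6 (33 nuclei) led with Kcnmb2, Hs3st4, Ubash3b and Grm3. It showed 7 of 10 markers of the thalamic reticular nucleus, but clusters 1, 3, 5, 8 and 12 each showed 6 of them and none was among its 10 leading genes, so it stayed unnamed. In cluster 6 the calcium-binding protein gene Pvalb stood at 78.5 CPM, the transcription factor gene Six3 at 144 CPM and the nuclear receptor gene Esrrg at 1758 CPM. Pvalb was seen in 81.8% of its nuclei and reached at most 6.28 CPM in any other cluster. The reticular markers Meis1, Ecel1 and Spp1 were seen in 24.2%, 21.2% and 21.2% of its nuclei and had higher levels in several other clusters.

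The other clusters stayed unnamed and are given by their leading genes. Cluster 1, the largest with 74 nuclei, led with Cdh23, Chrm2 (a muscarinic receptor) and Cntnap4. Cluster 4 (39 nuclei) led with Adarb2, Reln, Sox6, Maf and Kit, which are genes of both caudal and medial ganglionic eminence interneurons. Cluster 5 (37 nuclei) led with the oestrogen receptor gene Esr1 and with Ddc, an enzyme of monoamine synthesis, and cluster 7 (29 nuclei) with Rorb, the neuropeptide gene Gal and the kappa opioid receptor gene Oprk1. Cluster 10 (13 nuclei) led with Moxd1, Greb1 and the prolactin receptor gene Prlr, and cluster 11 (12 nuclei) with Tshz1, Foxp2 and Pbx3. Meis2, a homeobox gene, stood at 2781 CPM in cluster 11 and was seen in all its nuclei.

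Some clusters led with genes of other cell types. Cluster 3 (42 nuclei) led with Ebf1, but also with the microglial genes Ly86 and Inpp5d and with Lef1, a gene of thalamic glutamatergic neurons. Cluster 8 (17 nuclei) led with myelin genes such as Mbp and Mobp, and cluster 12 (6 nuclei) with the astrocyte glutamate transporter genes Slc1a3 and Slc1a2. At a lower resolution (0.6), which gave 10 clusters, between 73.0% and 100% of each cluster's nuclei stayed together, with the lowest value in cluster 5.

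The libraries held these clusters in different shares. Cluster 1 took 26.0%, 55.0%, 2.47% and 15.9% of the members of the 4 libraries, so both NS libraries were higher than both COL libraries. Cluster 6 took 1.04%, 10.0%, 21.0% and 17.4%, and cluster 3 took 2.60%, 0%, 16.0% and 34.8%, both higher in the COL libraries. Cluster 2 was found in replicate 1 of each group only, with 38 nuclei in NS and 9 in COL, and cluster 9 (13 nuclei, led by Prdm16, Ano1 and Ano2) came from COL replicate 1 alone. Cluster 5 held 34 nuclei of NS replicate 1 and 3 nuclei of all other libraries. The genes that set these clusters apart also differ between libraries, so the shares are given with no test.

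**Figure D2:**
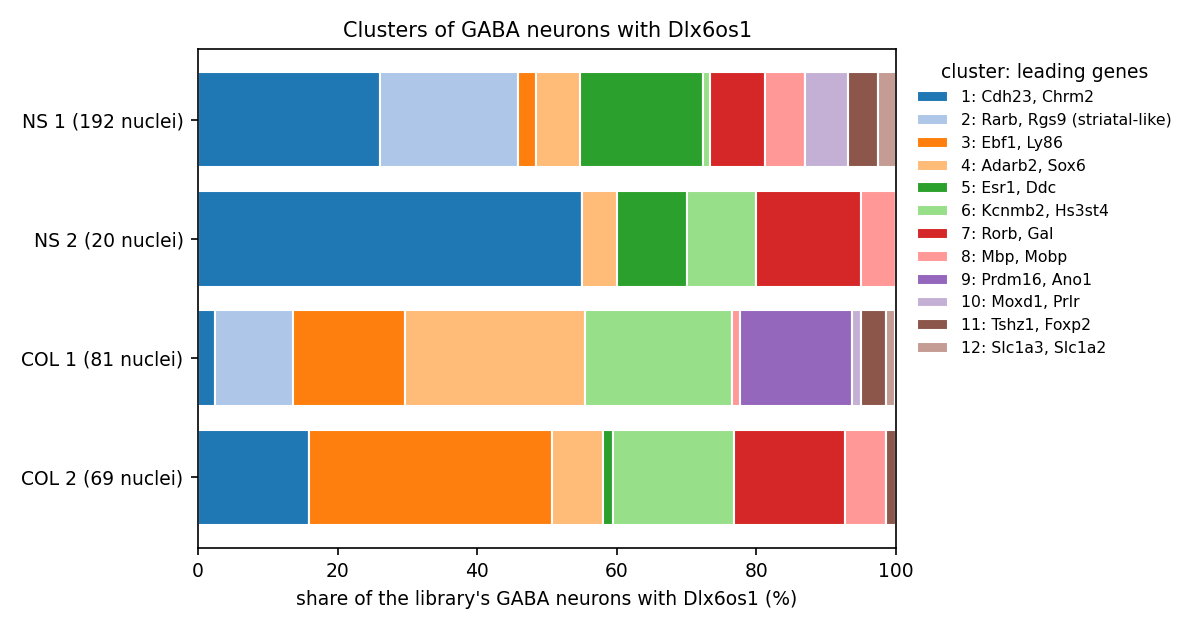
Clusters of GABA neurons with Dlx6os1 as a share (in %) of each library's members, 1 bar per library and 1 colour per cluster, named by leading genes. Cluster 1 (dark blue) takes 26.0% and 55.0% of the NS libraries and 2.47% and 15.9% of the COL libraries, while cluster 6 (light green) takes 1.04% and 10.0% against 21.0% and 17.4%.

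Compared with GABA neurons without Dlx6os1 of the same libraries, 6 of 18 genes on the Dlx and forebrain factor list rose in the members. Beside transcription factors this list includes the antisense transcript Dlx1as, which was among the 6. Of 6 tested markers of midbrain-derived thalamic interneurons, 4 fell. Of 17526 genes tested on summed UMIs (edgeR quasi-likelihood F test with the library as a block, Benjamini-Hochberg adjusted p under 0.05), 91 were higher in the members, which is 0.519% of the genes tested, and 76 were lower, which is 0.434%. The genes of the rule were left out. The median log2 fold change of all genes was -0.02. Without the library block no gene passed, with 330 of 16022 genes at an unadjusted p under 0.05, and DESeq2 called 55 of the 167 genes and no other. On the forebrain factor and midbrain interneuron lists, DESeq2 called only Dlx1, Dlx1as, Lhx6, Gata3 and Tal1.

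None of the 18 genes on the forebrain factor list was called lower, and their median log2 fold change was 0.66 against -0.02 over all genes. Dlx1 stood at 24.6, 25.4, 15 and 14.9 CPM in the members and at 14.3, 3.90, 7.47 and 6.08 CPM in the comparison class. Dlx1 rose by 1.11 on the log2 scale (SE 0.221, edgeR adjusted p = 0.00571). The antisense transcript Dlx1as stood at 33.2, 59.2, 29.3 and 23.8 CPM against 16.4, 11.0, 8.0 and 7.43 CPM, and rose by 1.57 on the log2 scale (SE 0.190, edgeR adjusted p = 3.27e-06). Both were higher in the members in 4 of 4 libraries, and in each of them the class values did not overlap. Dlx1as (minus strand, chr2:71516454-71537891) spans Dlx1 (plus strand, chr2:71528113-71533981). With 108 and 170 UMIs in all members, the pooled ratios to the comparison class were 2.29 (95% counting interval 1.84 to 2.84) for Dlx1 and 2.80 (2.34 to 3.33) for Dlx1as. Pooled ratios, here and below, sum UMIs over the 4 libraries without the library block. NS replicate 1, with the most member UMIs, therefore weighs most in the members. The intervals cover counting error only and not the spread between libraries.

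The other forebrain transcription factors that rose were Lhx6, Sox6, Etv1 and Prox1. Lhx6, which directs interneurons of the medial ganglionic eminence and is also used in the zona incerta, stood at 18.4, 12.7, 18.4 and 10.4 CPM in the members and at 6.76, 0.344, 11.9 and 2.90 CPM in the comparison class (log2 fold change 1.35, SE 0.275, edgeR adjusted p = 0.00696). It was higher in the members in 4 of 4 libraries, but the class ranges overlapped across libraries. Among the clusters, Lhx6 was highest in clusters 10 and 4, at 93.4 and 55.0 CPM, and reached at most 29.6 CPM in any other. Sox6, a partner of Lhx6 in the same lineage, stood at 152, 21.2, 174 and 168 CPM against 76.1, 47.6, 110 and 90.7 CPM (log2 fold change 0.80, edgeR adjusted p = 5.00e-05). It was higher in 3 of 4 libraries and lower in NS replicate 2, and DESeq2 gave an adjusted p of 1.000. Etv1 had a log2 fold change of 0.70 and Prox1, a gene of caudal ganglionic eminence interneurons, of 0.56, both higher in 4 of 4 libraries. Prox1 is not confined to such neurons. It stood at 41.3, 63.5, 49.1 and 71.5 CPM in the members and at 220, 214, 242 and 275 CPM in oligodendrocytes. In glutamatergic neurons it stood at 125, 107, 134 and 88.7 CPM. The calls of Lhx6 (without NS replicate 1), Etv1 (without NS replicate 2 or COL replicate 1) and Prox1 (without NS replicate 2 or COL replicate 2) were lost when a library was left out. DESeq2 did not call Etv1 (adjusted p = 0.330) or Prox1 (0.159), but it called Lhx6 (0.0169). With the rule applied to nuclei thinned to 4000 UMIs, which left 13, 2, 2 and 3 members and a median log2 fold change of -0.58 over all genes, Prox1 stood at -0.45 and Etv1 at -0.35, below 0 but above that median. Dlx2, Dlx5 and Dlx6 had few UMIs and log2 fold changes of 1.10, 0.37 and 0.73 that did not pass.

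Of 29 regional transcription factor genes tested, 2 rose and 7 fell, with a median log2 fold change of -0.14. Meis2, a homeobox gene of the striatum, olfactory bulb and zona incerta, stood at 485, 427, 801 and 551 CPM in the members and at 313, 320, 465 and 240 CPM in the comparison class. Its log2 fold change was 0.80 (SE 0.0953, edgeR adjusted p = 2.85e-06), and it was higher in the members in 4 of 4 libraries. With the rule applied to thinned nuclei it stood at -0.76, where the median over all genes was -0.58. With each nucleus thinned to 4000 UMIs, Meis2 was seen in 40.3% of members, 32.4% of the comparison class, 11.1% of glutamatergic neurons and 19.7% of oligodendrocytes. Its level differed between clusters. In clusters 4, 5, 7, 8, 10 and 12 Meis2 stood at 12.5 to 220 CPM, below its comparison class mean over libraries of 334 CPM. In the other clusters it stood at 395 to 2781 CPM. Tshz1, a zinc finger gene, had a log2 fold change of 0.61 and lost its call without either NS library. By DESeq2 it was not called (adjusted p = 0.633). It stood at 778 CPM in the 12 nuclei of cluster 11 and at 41.9 CPM in the other members. Its mean over libraries was 35.1 CPM in the comparison class.

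The 7 genes that fell were Gata3, Tal1, Otx2, Sox14, Lhx1, Lhx5 and Tcf7l2. Gata3, which keeps the identity of GABA neurons of the midbrain and caudal diencephalon, had 2, 0, 2 and 3 UMIs in the members, or 0.819, 0, 1.36 and 2.24 CPM. The comparison class held 6.63, 29.6, 18.1 and 26.5 CPM, so the ranges of the classes did not overlap. Its log2 fold change was -3.57 (SE 0.355, edgeR adjusted p = 1.54e-07), and the pooled ratio was 0.0669 (95% counting interval 0.0268 to 0.138). These UMIs lay in 1, 0, 1 and 2 member nuclei. At 4000 UMIs per nucleus Gata3 was seen in 0 of 362 members and in 6.66% of the comparison class. By counting error alone, 0 of 362 pooled members allows a share with a UMI at that depth of up to 0.829%. Glutamatergic neurons and oligodendrocytes showed Gata3 in 0.414% and 0.308%.

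Tal1, a bHLH gene of the same lineage, had 1 UMI in all members and 458 in the comparison class, a pooled ratio of 0.0189 (95% counting interval 0.000477 to 0.106). It stood at 0, 0, 0 and 0.745 CPM against 3.31, 14.5, 7.47 and 14.9 CPM. Otx2, a homeobox gene of the midbrain and diencephalon, had 12 UMIs against 463 (ratio 0.224, 0.115 to 0.395), and Sox14, a marker of interneurons that reach the thalamus from the midbrain, 7 against 343 (ratio 0.176, 0.0704 to 0.367). All 4 genes were lower in the members in 4 of 4 libraries. The calls of Gata3 and Tal1 held with each library left out, whereas Otx2 lost its call without NS replicate 2 or COL replicate 2 and Sox14 without any 1 of NS replicate 2, COL replicate 1 and COL replicate 2. Of the 6 tested markers of midbrain-derived thalamic interneurons, these 4 fell by edgeR and none rose. DESeq2 called Gata3 (adjusted p = 2.17e-05) and Tal1 (0.00178), but not Otx2 (0.307) or Sox14 (0.387).

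Otx2os1, a noncoding gene (chr14:48668708-48870683, plus strand) that overlaps Otx2 (chr14:48657677-48673819, minus strand), had the smallest p of the comparison. It stood at 14.7, 8.46, 7.49 and 26.8 CPM in the members and at 31.6, 154, 106 and 162 CPM in the comparison class. The classes did not overlap, and the log2 fold change was -2.48 (SE 0.208, edgeR adjusted p = 7.04e-09). In COL replicate 2, 1 nucleus held 69.4% of the 36 UMIs of the members. Tcf7l2, a gene of thalamic glutamatergic neurons, stood at 51.6, 42.3, 98.1 and 58.9 CPM against 86.7, 128, 171 and 115 CPM (log2 fold change -0.86, edgeR adjusted p = 4.27e-06). Lhx1 and Lhx5, LIM homeobox genes, had log2 fold changes of -1.05 and -1.45. Both lost their call without NS replicate 2, and Lhx5 also without NS replicate 1. DESeq2 called neither (adjusted p = 0.176 for Lhx1 and 0.162 for Lhx5).

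**Figure D3:**
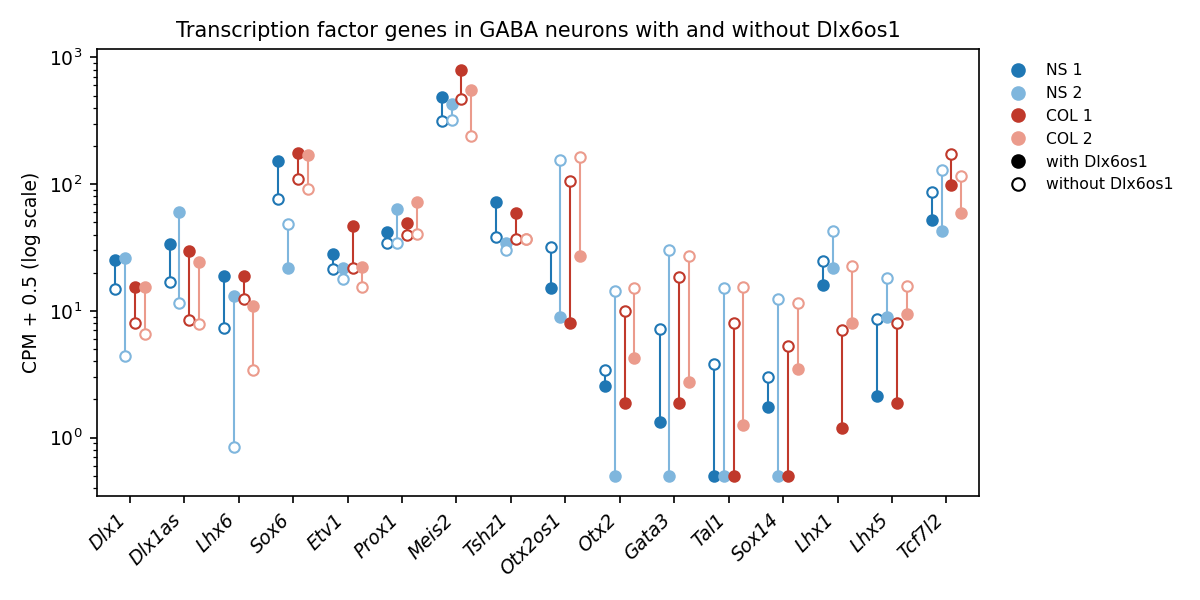
Levels of transcription factor genes and of the noncoding genes Dlx1as and Otx2os1 (CPM + 0.5, log scale) in GABA neurons with Dlx6os1 (filled) and without (open), 1 joined pair of circles per library. Dlx1 and Dlx1as are higher with Dlx6os1 in 4 of 4 libraries, and Gata3 and Tal1 are lower in 4 of 4, while Sox6 is lower with Dlx6os1 in NS replicate 2.

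Among genes outside the transcription factor lists, Erbb4, the receptor for neuregulins of many interneurons, stood at 1516, 1142, 2318 and 1554 CPM in the members and at 1110, 819, 1174 and 895 CPM in the comparison class (log2 fold change 0.69, SE 0.0884, edgeR adjusted p = 6.13e-06). It was higher in the members in each library. Cacna2d3, a calcium channel subunit linked to pain, stood at 1060, 626, 1174 and 1024 CPM against 798, 507, 922 and 645 CPM (log2 fold change 0.45, edgeR adjusted p = 0.00175). Other genes that rose in 4 of 4 libraries were Tcf4 (0.74), Sox2ot (0.70), Npas2 (0.69), Adamts3 (0.63), Dscaml1 (0.62, a cell adhesion molecule), March3 (0.59) and Chsy3 (0.56), each with its log2 fold change. Adamts3 stood at 365 CPM in cluster 2 and at 46.1 CPM in the other members. Its mean over libraries was 47.9 CPM in the comparison class. With the rule applied to thinned nuclei Tcf4 stood at -0.10, Chsy3 at -0.52 and Cacna2d3 at -0.30, below 0 but above the median of -0.58 over all genes. Sox2ot, Tcf4, Erbb4 and Dscaml1 were also abundant in oligodendrocytes. Erbb4 stood there at 2192, 1841, 2033 and 1508 CPM and Dscaml1 at 825, 867, 1208 and 1250 CPM. Of 8 oligodendrocyte markers, 0 were called between the classes, and the log2 fold changes were below 0 for all 8. The part of oligodendrocyte RNA in the levels of Sox2ot, Tcf4, Erbb4 and Dscaml1 was not tested.

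Among genes with a name and at least 50 CPM in the comparison class, those with the largest falls in 4 of 4 libraries were, beside Otx2os1 and Tcf7l2, Dpf3 (-1.0), Zfhx3 (-0.80), Fam19a1 (-0.79), Epha10 (-0.64, an ephrin receptor), Zfhx4 (-0.60) and Luzp2 (-0.58), with log2 fold changes in parentheses. Zfhx3, a large homeobox transcription factor, stood at 411, 503, 706 and 710 CPM against 919, 849, 1017 and 1221 CPM. Its class ranges did not overlap. Vav3, Cntn4, Zfpm2 and Slit2 each had a log2 fold change of -0.46. Of the 23 genes reported here that the naming rule picked, 23 kept their direction and 16 their call with each library left out in turn.

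Of 8 tested genes of GABA synthesis, packaging and uptake, none passed between the classes. Gad1 and Gad2 are genes of the rule and were not tested. Of 14 GABA synapse scaffold and adhesion genes, 1 rose, which was Erbb4. Slc32a1, the vesicular GABA transporter gene, stood at 61.0, 42.3, 19.8 and 38.0 CPM in the members and at 55.3, 67.6, 20.7 and 36.4 CPM in the comparison class (log2 fold change 0.03, SE 0.128). None of 16 GABA-A and GABA-B receptor genes, 24 glutamate receptor genes, 26 modulatory receptor genes, 18 burst channel genes and 11 perineuronal net genes passed either. Markers of the reticular nucleus (0 of 10) and of striatal projection neurons (0 of 12) did not pass, with median log2 fold changes of 0.13 and 0.20. Of the zona incerta markers, 3 of 10 rose (Meis2, Dlx1 and Lhx6), as did 2 of 8 medial (Lhx6 and Sox6) and 1 of 7 caudal (Prox1) ganglionic eminence markers, genes already given above. In 4 further lists 1 gene each passed, namely Calb1 (0.62, of 24 peptide and calcium-binding protein genes), Homer1 (0.40, of 17 early response genes), Atf3 (-2.27, of 14 injury genes) and Abca1 (-0.79, of 16 lipid genes). These 4 calls were each lost when a library was left out, and Atf3 turned to 0.41 by DESeq2. Of 8 astrocyte markers, 1 was lower in the members (Gli3, log2 fold change -1.42, edgeR adjusted p = 0.0112), and its call was lost without NS replicate 2 or COL replicate 2. None passed among the heat shock, interferon, gp130-STAT3 and haem and iron genes.

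Collagenase against saline within the members gave no gene past the threshold. Of 11505 genes tested, 0% were called (edgeR quasi-likelihood F test, smallest adjusted p = 0.212), with 1512 genes at an unadjusted p under 0.05, of which 529 were higher and 983 lower in COL. DESeq2 called 8 genes, 1 higher and 7 lower. A block for the replicate number called 35 genes, 5 higher and 30 lower. With the numbers crossed, which joins NS replicate 1 to COL replicate 2, the block called 0. With a library left out, 0 genes passed without NS replicate 1 and 0 without NS replicate 2, but 66 passed without COL replicate 1 and 697 without COL replicate 2. Each of these fits compared 1 library with 2, and the lone library was assumed to vary like the others. Both COL libraries lay above both NS libraries for 17.0% of the genes tested and below both for 27.5%. The clusters of members also differed between the libraries, as given above, and the part of that in any difference was not tested.

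The genes with the smallest p that were higher in COL included acute-phase and immune genes. Serpina3n, an acute-phase protease inhibitor, stood at 1.23, 0, 13.6 and 28.3 CPM in the members. Both COL libraries were above both NS libraries (unadjusted p = 0.000273, edgeR adjusted p = 0.212). Its level in oligodendrocytes was 1.19, 1.74, 67.1 and 140 CPM, and at 4000 UMIs it was seen in 4.42% of members and 8.63% of oligodendrocytes, so its share in the members was not above that of cells of another type. Ctss, a lysosomal protease of microglia and macrophages, stood at 3.68, 4.23, 18.4 and 35.0 CPM, and Ptprc, the CD45 gene of immune cells, at 0.409, 0, 7.49 and 11.9 CPM. In the comparison class Serpina3n stood at 2.39, 2.07, 16.0 and 30.9 CPM and Ctss at 5.76, 7.23, 18.2 and 33.1 CPM. Ptprc stood there at 1.79, 1.26, 7.68 and 14.3 CPM. For each of these genes both COL libraries also lay above both NS libraries in the comparison class, in glutamatergic neurons and in oligodendrocytes. The 5 macrophage markers summed to 2.46, 8.46, 17.0 and 61.1 CPM in the members and the 8 microglial markers to 82.7, 97.3, 71.5 and 156 CPM. The microglial marker Tmem119 was at 0 in 3 of 4 libraries. The part of immune cell RNA in these values was not tested.

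Eepd1 stood at 11.5, 16.9, 56.6 and 41.7 CPM, with both COL libraries higher. Lef1, a Wnt pathway transcription factor of thalamic glutamatergic neurons, stood at 20.9, 25.4, 49.7 and 80.5 CPM in the members and at 413, 561, 597 and 376 CPM in glutamatergic neurons. Its UMIs lay in 40, 3, 30 and 19 member nuclei, and in each COL library 1 nucleus held 31.5% of them. In the comparison class the groups overlapped for Eepd1 (20.1, 25.5, 36.3 and 22.3 CPM) and Lef1 (39.6, 75.0, 65.2 and 86.6 CPM). In oligodendrocytes both COL libraries lay above both NS libraries for both genes. Of 5 tested glutamatergic markers, 5 had both COL libraries above both NS libraries in the members, where the share over all genes was 17.0%, and 1 of 5 did so in the comparison class, where the share over all genes was 25.2%. Their median log2 difference in the members was 1.52 against 0.00 over all genes.

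Among the genes lower in COL, Tuba1a, a tubulin gene of growing neurons, stood at 89.2, 114, 17.0 and 24.6 CPM in the members. Both COL libraries lay below both NS libraries (log2 fold change -2.14, SE 0.281, edgeR adjusted p = 0.212), and DESeq2 called it (adjusted p = 0.0192). Ptgds, a prostaglandin synthase of meninges and oligodendrocytes, stood at 219, 398, 17.7 and 52.9 CPM in the members and at 672, 1319, 108 and 229 CPM in oligodendrocytes. Slc6a11, a GABA transporter gene of astrocytes, stood at 60.6, 67.7, 16.4 and 19.4 CPM. Agt, the angiotensinogen gene of astrocytes, stood at 14.3, 12.7, 0.681 and 0.745 CPM, and Rpl6, a ribosomal protein gene, at 79.8, 76.2, 16.4 and 28.3 CPM. For all 5 genes both COL libraries also lay below both NS libraries in the comparison class, in glutamatergic neurons and in oligodendrocytes.

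**Figure D4:**
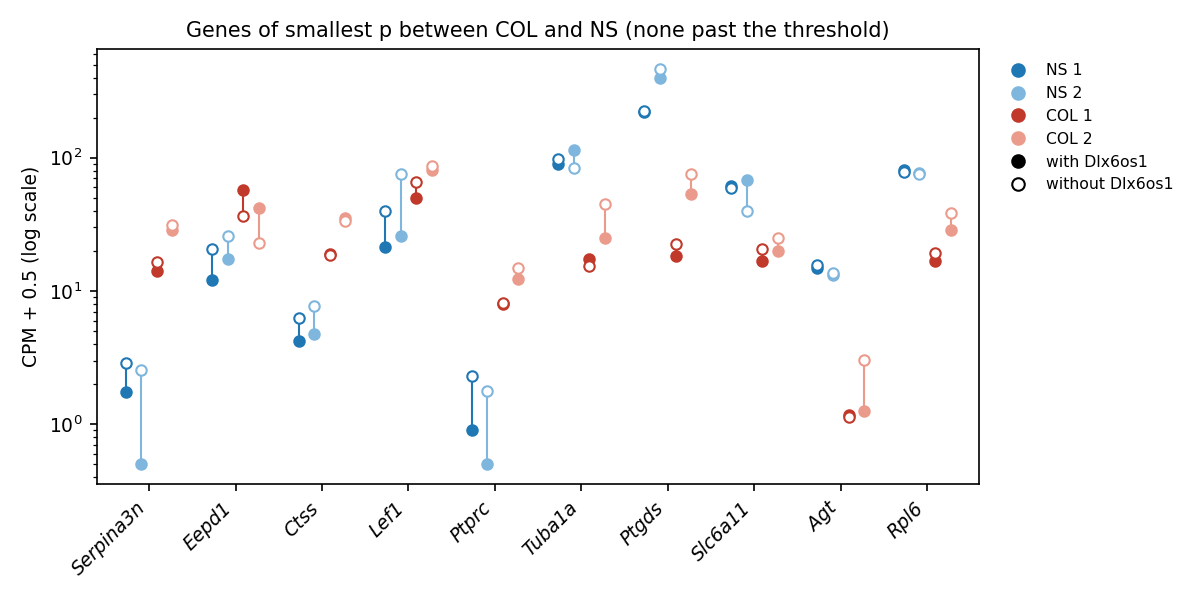
Levels of the 5 genes with the smallest p in each direction between COL and NS (CPM + 0.5, log scale), in GABA neurons with Dlx6os1 (filled) and without (open), 1 pair of circles per library. The COL libraries (red) lie apart from the NS libraries (blue) in the members, and no gene passed the threshold (smallest adjusted p 0.212).

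Neuropeptide and calcium-binding protein genes had a median log2 difference of -1.26, and 12 of 17 tested lay lower in both COL libraries than in both NS libraries, where the share over all genes was 27.5%. For 11 of these 12 the same held in the comparison class, as it did for 71.6% of all genes that lay lower in the members. Tac1, the substance P gene, stood at 46.3, 16.9, 6.81 and 9.69 CPM in the members and at 35.8, 23.2, 3.73 and 2.85 CPM in oligodendrocytes. Pmch, a peptide gene of the lateral hypothalamus, stood at 31.5, 29.6, 3.41 and 7.45 CPM in the members and at 41.8, 34.3, 0 and 18.5 CPM in oligodendrocytes. At 4000 UMIs per nucleus Pmch was seen in 7.46% of members and 10.9% of oligodendrocytes, so its share in the members was not above that of cells of another type. Sst, the somatostatin gene, stood at 42.2, 16.9, 8.86 and 13.4 CPM. Spp1 and Pvalb went the other way, with 1.64, 4.23, 10.9 and 40.2 CPM for Spp1 and 4.09, 12.7, 22.5 and 13.4 CPM for Pvalb.

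Of 6 gp130-STAT3 genes, 3 lay higher in both COL libraries, where the share over all genes was 17.0%. Stat3, the transcription factor of this cytokine pathway, stood at 31.9, 42.3, 70.9 and 75.3 CPM in the members (log2 fold change 1.19, unadjusted p = 0.00145, edgeR adjusted p = 0.212). In the comparison class it stood at 42.9, 43.1, 94.7 and 86.2 CPM. Of 16 tested T-type and other burst channel genes, 6 lay higher and none lower, with Cacna1g, a T-type calcium channel gene, at 44.6, 46.5, 77.7 and 74.5 CPM. Kcnc2, a fast potassium channel gene, stood at 478, 423, 902 and 674 CPM. Of 23 glutamate receptor genes, 8 lay higher and 2 lower, and of 10 early response genes, none lay higher and 5 lower. Over all genes, 17.0% lay higher and 27.5% lower in the members. Pain and neurotrophin genes (2 higher and none lower of 11) and injury genes (none higher and 3 lower of 10) are to be read against the same shares. Higher and lower counts were 1 and 3 of 8 for GABA synthesis and uptake, 4 and 2 of 13 for Dlx and forebrain factors and 5 and 2 of 20 for regional factors. They were 3 and 2 of 15 for GABA receptors, 3 and 5 of 19 for modulatory receptors, 3 and 1 of 14 for synapse scaffold genes and 2 and 1 of 6 for perineuronal net genes. Heat shock genes gave 0 and 3 of 7, interferon genes 1 and 0 of 2, haem and iron genes 1 and 2 of 8, and lipid genes 2 and 5 of 12. In the comparison class, where 25.2% of all genes lay higher, so did 8 of 11 pain and neurotrophin genes and 6 of 6 gp130-STAT3 genes. It also held there for 7 of 16 burst channel genes and 10 of 23 glutamate receptor genes. Fewer lay higher there than in the members for GABA receptors (1 of 15), forebrain factors (3 of 13) and regional factors (3 of 20). Of all genes, 34.6% lay lower there. More lay lower there than in the members for early response (6 of 10), heat shock (5 of 7) and lipid genes (8 of 12). This also held for injury genes (4 of 10) and burst channel genes (2 of 16). Fewer did for GABA synthesis (2 of 8), modulatory receptors (4 of 19) and forebrain factors (1 of 13). Regional factors (1 of 20) and perineuronal net genes (0 of 6) also had fewer.

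The test of whether the COL against NS difference was itself unlike in the members and in the comparison class called 28 genes with a more positive difference in the members, 0.160% of 17526, and 10 with a more negative one, 0.0571%. DESeq2 called none, with 112 genes at an unadjusted p under 0.05, and none of the 9 genes reported here that the naming rule picked kept its call with each library left out in turn. Synpr, a synaptic vesicle gene, stood at 154, 203, 69.5 and 104 CPM in the members and at 93.2, 92.7, 128 and 104 CPM in the comparison class. In the members both COL libraries were below both NS libraries, and in the comparison class both were above them. The difference of the log2 changes was -1.23 (SE 0.199, edgeR adjusted p = 3.85e-06), and the call was lost without COL replicate 1. In oligodendrocytes Synpr stood at 345, 327, 123 and 95.4 CPM, also lower in both COL libraries. In glutamatergic neurons it stood at 54.5, 44.2, 30.3 and 52.3 CPM, where the groups overlapped.

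Col25a1, a membrane collagen gene, stood at 268, 118, 325 and 596 CPM in the members and at 300, 216, 351 and 256 CPM in the comparison class. Both COL libraries were higher in the members, while the groups overlapped in the comparison class (difference 0.95, edgeR adjusted p = 0.000620). Nnat, a gene of developing and neuroendocrine neurons, stood at 170, 50.8, 80.4 and 135 CPM against 251, 74.8, 50.4 and 93.6 CPM, and its groups overlapped in both classes (difference 1.17, edgeR adjusted p = 4.15e-05). Col11a1 (-0.99) had both COL libraries below both NS libraries in the members. Rarb (-0.88) turned to 0.65 without NS replicate 1. Its level was highest in cluster 2 (1087 CPM), whose nuclei came from replicate 1 of each group only. With the rule applied to thinned nuclei, Synpr turned to 1.31, Col25a1 to -10.30 and Nnat to -0.46, where the median over all genes was -0.78.

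Some of these values came from single nuclei. Hdc, the enzyme that makes histamine, had a difference of 6.14 and stood at 0.819, 0, 0 and 20.9 CPM in the members, and 26 of its 28 UMIs in COL replicate 2 (92.9%) came from 1 nucleus. Gpc4, a heparan sulphate proteoglycan gene, had a difference of 2.62, and 34 of its 74 UMIs in COL replicate 2 (45.9%) came from 1 nucleus. For Nnat and Col25a1 the largest share of 1 nucleus in that library was 33.7% and 26.9%. Of the genes of the lists, Grik1 (0.72), Cacna2d1 (0.85), Ebf1 (1.39), Synpo2 (1.08) and Necab1 (0.97) had a more positive difference. Ebf1 turned to -0.25 without COL replicate 1, and with the rule applied to thinned nuclei Ebf1 turned to -7.11 and Synpo2 to -8.71.

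**Figure D5:**
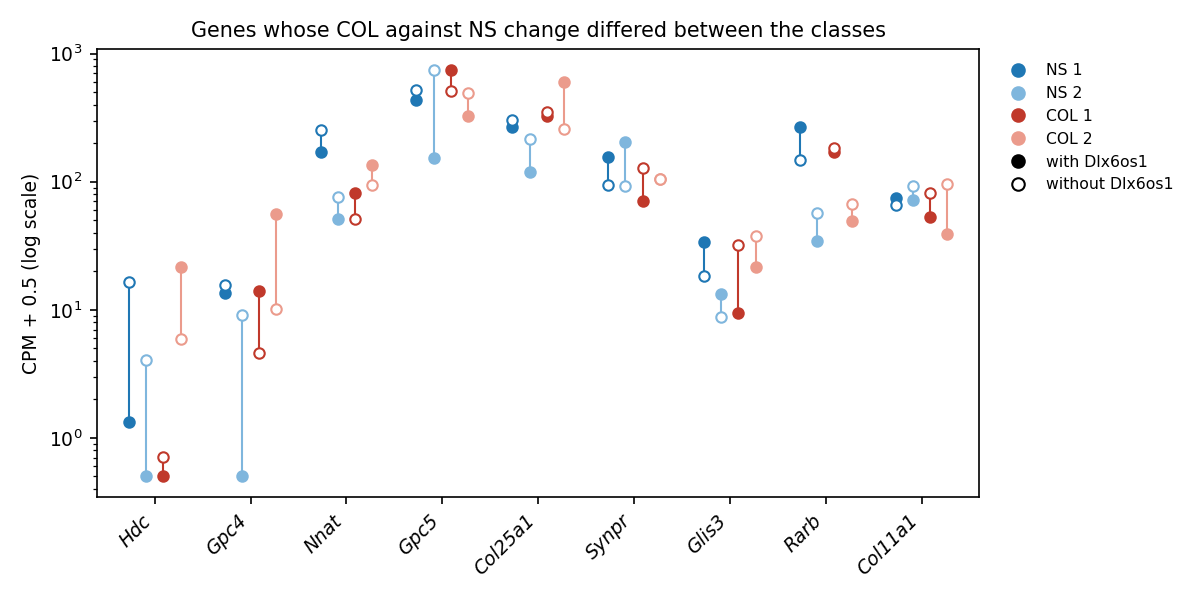
Levels of the 9 named genes whose COL against NS difference was unlike in the 2 classes (CPM + 0.5, log scale), with Dlx6os1 (filled) and without (open), 1 pair of circles per library. Synpr is lower in COL among members (69.5 and 104 against 154 and 203 CPM in NS) and not in the comparison class. It was also lower in COL in oligodendrocytes, which are not shown. The Hdc level of COL replicate 2 rests mostly on 1 nucleus.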

How the data were processed

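Single nuclei of thalamus were measured with 10x Chromium 3′ chemistry in 4 libraries, 2 per group. The authors aligned reads and counted UMIs with Cell Ranger 1.2.0 on mm10 and deposited raw UMI counts per gene and barcode, with no normalization. Library totals ran from 68746459 to 77557870 UMIs. Members and lists were chosen with earlier results of these data known. Doublets were not removed and no caller was run.

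Counts of member nuclei were summed per library, genes of the rule were removed, and sums were tested with edgeR 4.0.16 (TMM, filterByExpr, quasi-likelihood F test, Benjamini-Hochberg over all genes tested, threshold 0.05). The comparison between classes had the library as a block. Shares were compared by exact permutation tests. CPM are counts per 1000000 UMIs of the summed nuclei. Thinned shares use 4000 UMIs drawn per nucleus. Named genes were those past the threshold with the largest log2 fold change, the same direction in 4 of 4 libraries and at least 50 CPM (up to 12 a direction) between classes, and the smallest p (up to 5 a direction) in the other tests; genes of the lists are named where described, and some genes are not reported here. Alternatives were DESeq2 1.42.0, no filter, deeper or thinned nuclei, other Dlx6os1 limits, less glial RNA, other blocks and each library left out. Clusters used scanpy 1.11.5 (2000 variable genes, 15 components, resolution 1.0), with leading genes and the 10 promoter genes chosen after their values were seen. On simulated data, genes changed by 1 and 2 log2 units were recovered at 15.2% and 74.3% for COL against NS (11505 genes). The shares were 65.6% and 92.5% between classes (17526 genes) and 22.1% and 56.2% for the difference of changes (17526 genes). In the same order, 6, 6 and 2 unchanged genes were called. The simulation spread counts by the dispersion trend only and left out the differences in clusters between libraries. These shares need not hold for the real libraries. Sequences came from RefSeq (GRCm38).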

Additional observations from a re-analysis of the deposited data

Results flagged for a closer look

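For 9 genes the COL against NS difference was tested directly between GABA neurons with and without Dlx6os1 and was unlike in the 2 classes (edgeR interaction term). The log2 difference, members minus comparison class, was 6.14 for Hdc, 2.62 for Gpc4, 1.17 for Nnat, 0.94 for Gpc5 and 0.95 for Col25a1. It was -1.23 for Synpr, -2.09 for Glis3, -0.88 for Rarb and -0.99 for Col11a1. In COL replicate 2, 1 nucleus held 92.9% of the Hdc UMIs, 45.9% of the Gpc4 UMIs and 64.3% of the Glis3 UMIs of the members. For Nnat and Col25a1 the largest share of 1 nucleus in that library was 33.7% and 26.9%. DESeq2 called none of the 9, and each lost its edgeR call when at least 1 library was left out.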

How the results depend on the processing

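The share of GABA neurons (COL minus NS, 2.34 points) turned to -0.658 with nuclei thinned to 4000 UMIs, -0.947 with under 10 glial UMIs and -0.0126 over all neurons, and the share of nuclei (-0.203) to 0.187 with under 10 glial UMIs, 0.685 with glial RNA at most 0.4% (chosen after seeing the data) and 0.145 over nuclei of any depth. With 1 library left out they ran from -2.66 to 7.35 and from -1.46 to 1.06 points. Genes called between COL and NS (0) were 8 by DESeq2, 325 with no filter, 1 with the rule applied to thinned nuclei, 63 at 5 or more Dlx6os1 UMIs, 15 with members thinned (chosen after seeing the data), and 0 to 697 with 1 library left out. Calls between the classes (167) were 55, 252, 3, 209 and 75 under these settings, 0 with no library block and 98 to 200 with 1 library left out. Calls on the difference of changes (38) were 0, 24, 0, 7 and 2, 24 at 8000 or more UMIs, and 15 to 69 with 1 library left out.

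With the rule applied to thinned nuclei (13, 2, 2 and 3 members), the median over all genes between the classes was -0.58. Meis2 (-0.76) lay below it, and Tcf4 (-0.10), Prox1 (-0.45), Chsy3 (-0.52), Etv1 (-0.35) and Cacna2d3 (-0.30) lay below 0 but above it. For the difference of changes, with a median of -0.78, Nnat turned to -0.46, above that median, Col25a1 to -10.30, Synpo2 to -8.71, Ebf1 to -7.11 and Synpr to 1.31. Atf3 turned to 0.41 by DESeq2. With 1 library left out Rarb ran from -1.10 to 0.65 (without NS replicate 1) and Ebf1 from -0.25 (without COL replicate 1) to 2.90. The cause was not tested. Under 10 glial UMIs left 4, 1, 2 and 0 members, and the gene tests could not be fitted.

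Replicate numbers were shared by the groups, and same-numbered libraries deviated together with a correlation of 0.0243 in the members and 0.121 in the comparison class. With 2 pairs and no label that gives a number a meaning, whether the numbers pair the libraries was not settled. A replicate block called 35 genes between COL and NS and 26 for the difference of changes. With the numbers crossed, it called 0 genes between COL and NS. The 20 members of NS replicate 2 limit each value of that library.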
